A study of Solanum lycopersicum with 8 samples.

Results

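The transcripts described here are those that were strongly lower in tomato leaves 12 h after spraying than 6 h after spraying, whichever spray the plants received. A probe set, the group of short probes that reads 1 transcript on the array, was a member when its log2 value was lower at 12 h by 1.3 or more in each of 4 pairs of arrays. The pairs were NPA repeat 1, NPA repeat 2, water repeat 1 and water repeat 2. Of 8404 probe sets on the array other than controls, 153 met this rule, or 1.82%, while 53 met the mirror rule for rises. The members were thus chosen by the time difference itself, whose size is given as a description, with no test.

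Plants of tomato cultivar Summer sweet, kept under a 12 h photoperiod with a growth temperature of 27 C, were sprayed to run-off. The spray was neutralized phosphorous acid (NPA), which is 1 g of phosphorous acid per litre brought to pH 6.3 with potassium hydroxide, or water. Leaves were collected at both times, which gave 4 groups of 2 Affymetrix Tomato Genome arrays: NPA 12 h, water 12 h, NPA 6 h and water 6 h. RNA from 5 plants was pooled for each array, and the whole experiment was repeated, which supplied repeats 1 and 2 of every group. The labels do not give the clock hour of spraying or harvest, so hour of day and time after spraying cannot be told apart. In whole leaves, fewer cells of a type and less RNA per cell cannot be told apart either.

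In leaves, many transcripts follow the day. Genes for chlorophyll a/b-binding proteins, which hold the light-harvesting pigments of the photosystems, are a textbook case of transcripts that follow light and the circadian clock, and genes of carbon metabolism, hormone synthesis and cell wall growth can follow the day as well. The enzyme zeaxanthin epoxidase belongs to the xanthophyll cycle, in which leaves shift between pigments as light changes, and it also supplies the precursor of abscisic acid.

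Values are log2 expression as deposited, between 2.68 and 14.60 over the table. The arrays of a group correlated at 0.968 to 0.987 across probe sets. Markers of tissues and cells were read for their time differences only, which do not check the tissue. For leaf, 4 markers had a named probe set, namely CAB4, CAB5, CAB6A and PSBO, a subunit of the oxygen-evolving complex. The first 3 are members, and PSBO had a time difference, 12 h minus 6 h, of 0.03 in NPA leaves and -0.02 in water leaves. Of the 5 markers found for other tissues and cells, MTS1, of glandular trichomes, passed as lower in NPA leaves (-1.87) and did not pass in water leaves (-0.57). The water values of MTS1, 3.92 and 3.97 at 6 h and 3.30 and 3.46 at 12 h, lie near the lowest of the table. So do its NPA values at 12 h, 3.36 and 3.81. They were not placed above background, so neither of its changes is firm. TDR6, of flowers, passed as higher in NPA leaves (2.24) and stood at 0.94 in water leaves without passing. EXP1 (fruit), RSI-1 and TIP (root) passed in neither, with time differences between -0.62 and 0.05. The part of these markers in the results was not tested.

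Across the 153 members the median change was -2.74 in NPA leaves and -2.51 in water leaves, which is 6.68-fold and 5.70-fold lower at 12 h. Over all probe sets it was 0.02 in both. The quartiles of the members lay at -3.67 and -1.95 in NPA leaves and at -3.36 and -1.95 in water leaves. Averaged over the 4 pairs, 113 members changed by -2 or lower, 58 by -3 or lower, 22 by -4 or lower and 8 by -5 or lower. In 150 of the 153, all 4 arrays of 12 h were below all 4 arrays of 6 h, which held for 16.8% of all probe sets. The rule used the same contrasts as limma's comparison of times, so the members' calls there followed from the choice and nothing is read from them. For the record, 149 members passed as lower at 12 h in NPA leaves and 149 in water leaves (11.8% and 10.5% of all probe sets), and with the repeat as a block 153 in each (18.7% and 17.2% of all probe sets). Of all probe sets 14.2% passed as higher at 12 h in NPA leaves and 11.7% in water leaves. The 4 that passed only with the block were LOC544001 and the unnamed Les.3924.1.S1_at, LesAffx.62349.1.S1_at and Les.3070.2.A1_at.

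**Figure D1:**
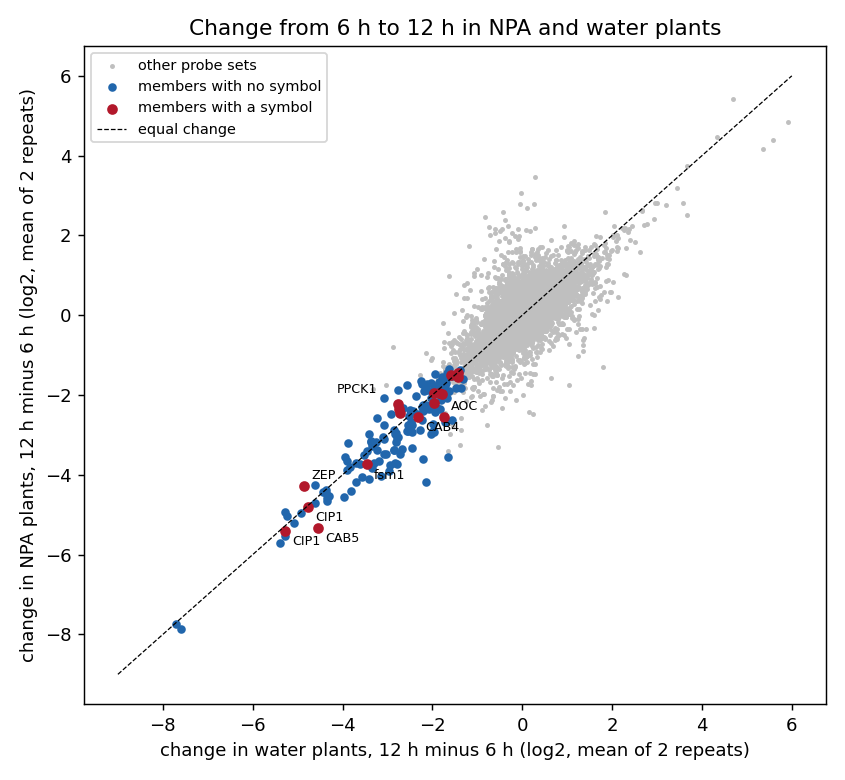
Change from 6 h to 12 h on the log2 scale, in NPA leaves (vertical axis) and in water leaves (horizontal axis), as means of 2 repeats. Grey points are other probe sets, blue and red points are the 153 members without and with a gene symbol, and the dashed line marks equal change; the members run down to -7.86 in NPA leaves and lie along the line.

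At the limit of the rule, membership turned on hundredths. The 3 unnamed members nearest to it, LesAffx.51354.1.S1_at, LesAffx.41330.2.S1_at and Les.5839.1.S1_at, had a weakest pair of -1.3, -1.31 and -1.31. Just outside stood Les.2723.1.S1_at, Les.4390.1.A1_at and Les.4291.2.S1_at, each with a weakest pair of -1.29. A further 58 probe sets met the limit in 3 of the 4 pairs.

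Of the 153 members, 17 probe sets had a gene symbol, for 16 genes, and 136 had none. This is 11.1% of the members, beside 8.96% of all probe sets. All 16 genes were found by their identifier in the RefSeq gene table, and the symbols were unchanged there.

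Light harvesting came with 3 genes. CAB5 stood at 8.05 and 8.72 in NPA leaves and 8.94 and 9.55 in water leaves at 12 h. At 6 h it stood at 13.67 and 13.75 in NPA leaves and 13.77 and 13.82 in water leaves. At 12 h both NPA arrays were below both water arrays, and at 6 h as well, by a far smaller margin. Its change was -5.33 in NPA leaves, 40.1-fold lower, and -4.55 in water leaves, 23.4-fold lower.

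CAB4 had values of 11.03 and 11.63 in NPA leaves and 11.30 and 11.86 in water leaves at 12 h, against 13.90 and 13.85 in NPA leaves and 13.91 and 13.89 in water leaves at 6 h. CAB6A had 12.31 and 11.98 in NPA leaves and 12.40 and 12.20 in water leaves at 12 h, against 14.11 and 14.07 in NPA leaves and 14.13 and 14.17 in water leaves at 6 h. Both genes differed far more between times than between sprays, and their NPA and water arrays overlapped at 12 h. Their changes were 5.84-fold and 3.85-fold lower in NPA leaves and 4.99-fold and 3.60-fold lower in water leaves. The 6 h values of CAB6A, and to a lesser degree those of CAB4 and CAB5, lie close to the highest value in the table, 14.60. Whether the scale limits them was not tested.

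Of 7 probe sets found from the list for this group, the 3 CAB genes passed as lower in NPA and in water leaves and none as higher, and the list median was -0.09 in NPA leaves and -0.05 in water leaves. PSBO, PSBR, PSBP and LOC543978, which entered the list through the synonym PSAD, had time differences between -0.09 and 0.20 and did not pass. Their values, like those of the 3 CAB genes at 6 h, lie close to the top of the table, and whether the scale limits their differences was not tested. These are subunits of the photosystems rather than pigment-binding antenna proteins. On the list of chlorophyll synthesis and greening, 1 gene, GSA-AT, was found, and it passed only as lower in water leaves with the block (adjusted p = 0.0375, and 0.131 without).

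ZEP, zeaxanthin epoxidase, stood at 6.97 and 7.11 in NPA leaves and 6.99 and 6.80 in water leaves at 12 h. At 6 h it had 11.62 and 11.02 in NPA leaves and 12.09 and 11.41 in water leaves. The sprays overlapped at both times. Its change was -4.28 in NPA leaves, 19.4-fold lower, and -4.86 in water leaves, 28.9-fold lower, with the smaller change in NPA leaves in both repeats.

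ZEP was the 1 member among 12 probe sets, for 11 genes, of carotenoid and abscisic acid synthesis. In NPA leaves 2 of the 12 passed as lower and 2 as higher, and in water leaves 3 as lower and 1 as higher, with list medians of 0.20 and -0.17. With the block, 4 passed as higher in NPA leaves. One Psy1 probe set, for the phytoene synthase at the start of the pathway, rose by 3.19 in NPA leaves and 3.45 in water leaves, while the other rose by 0.94 in NPA leaves and stood at 0.07 in water leaves without passing. PSY2 stood at 0.46 in NPA leaves and -0.15 in water leaves, and passed only in NPA leaves with the block (adjusted p = 0.0348, and 0.054 without). PDS, phytoene desaturase, passed as lower in water leaves alone, at 0.15 in NPA leaves and -0.73 in water leaves, and the difference between sprays was not tested for it. VDE, violaxanthin de-epoxidase, which runs the step opposite to ZEP and was picked after its values were seen, stood at 0.50 and 0.48 in NPA leaves and 0.27 and 0.17 in water leaves on its pair of probe sets, with 1 pass, the 0.48.

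The largest change of a member with a symbol was that of CIP1, which has 2 probe sets on the array, both members. The first stood at 5.92 and 5.94 in NPA leaves and 5.86 and 6.29 in water leaves at 12 h. At 6 h its values were 11.55 and 11.11 in NPA leaves and 11.73 and 10.98 in water leaves. NPA and water arrays overlapped at both times, and the change was 42.2-fold lower in NPA leaves and 38.9-fold lower in water leaves. The second probe set changed by -4.80 in NPA leaves and -4.77 in water leaves. Its 12 h values, 3.84 and 3.62 in NPA leaves and 3.65 and 4.24 in water leaves, lie near the lowest of the table, and no detection calls were used to place them above background.

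The list of light and clock regulators held 16 probe sets, for 13 genes, and the CIP1 pair were its only members. In NPA leaves 3 of the 16 passed as lower and 5 as higher, in water leaves 3 as lower and 4 as higher, and the list medians were 0.15 and -0.03. CO1 passed as lower, at -0.79 in NPA leaves and -1.03 in water leaves. LePCL1 passed as higher, at 1.93 in NPA leaves and 2.13 in water leaves, as did GBF12, at 2.25 and 2.05. COP1, the light signalling repressor that marks proteins for degradation in the dark, rose by 1.74 in NPA leaves and 1.23 in water leaves. CIP2a, CIP2b and CIP4, which share the stem of the CIP1 name and were picked after their values were seen, had time differences between -0.04 and 0.59. Of these, CIP2b passed as higher in water leaves only (limma adjusted p = 0.0231), CIP4 as higher in NPA leaves only (0.0302), and CIP2a in neither.

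**Figure D2:**
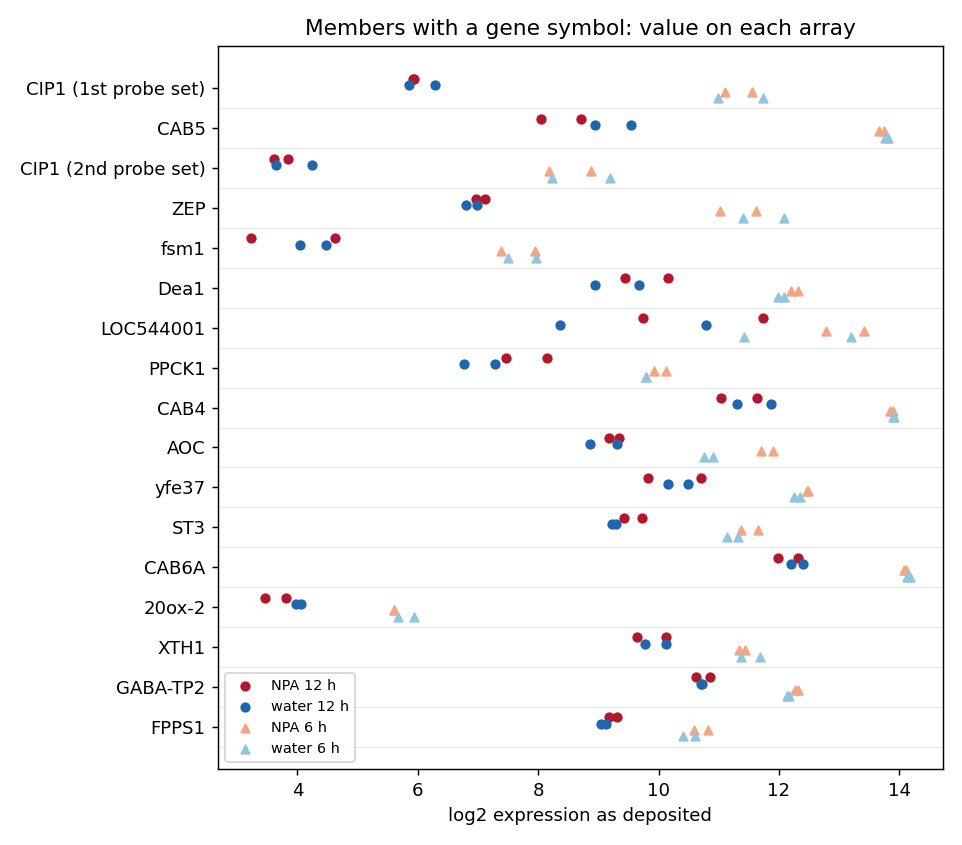
Log2 expression as deposited (horizontal axis) of the 17 member probe sets with a gene symbol, 1 row each, ordered by mean change. Circles are the 12 h arrays and triangles the 6 h arrays, with NPA in red tones and water in blue tones and 2 arrays per group; circles lie left of triangles in every row but that of LOC544001.

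Carbon metabolism came with PPCK1, the kinase that activates phosphoenolpyruvate carboxylase, and with ST3, a sugar transporter gene. PPCK1 stood at 8.14 and 7.46 in NPA leaves and 7.28 and 6.77 in water leaves at 12 h, against 9.93 and 10.12 in NPA leaves and 9.79 and 9.80 in water leaves at 6 h. NPA arrays were above water arrays at both times without overlap. Its change was -2.23 in NPA leaves, 4.68-fold lower, and -2.77 in water leaves, 6.82-fold lower.

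ST3 had 9.73 and 9.42 in NPA leaves and 9.29 and 9.22 in water leaves at 12 h, against 11.66 and 11.37 in NPA leaves and 11.32 and 11.14 in water leaves at 6 h. Here too the NPA arrays were the higher ones at both times, and the changes, -1.94 in NPA leaves and -1.98 in water leaves, were near equal.

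Of 16 probe sets on the list of carbon and sugar metabolism, 7 passed as lower and 2 as higher in NPA leaves, and 8 as lower and 2 as higher in water leaves. The list medians were -0.42 in NPA leaves and -0.77 in water leaves. PPCK1 was its 1 member, since ST3 is not on the list. PPCK2, a second kinase gene of the family, passed with -1.13 in NPA leaves and -1.48 in water leaves, and hxk1, a hexokinase, with -1.15 and -1.47. The second hexokinase, Hxk2, stood at -0.28 in NPA leaves and -0.33 in water leaves and did not pass. gMDH, a malate dehydrogenase, rose by 1.1 in NPA leaves and 0.77 in water leaves.

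GABA-TP2, of the family of 4-aminobutyrate transaminases, had 10.63 and 10.85 in NPA leaves and 10.73 and 10.70 in water leaves at 12 h, against 12.31 and 12.27 in NPA leaves and 12.14 and 12.16 in water leaves at 6 h. The groups overlapped at 12 h and not at 6 h, and the change was 2.93-fold lower in NPA leaves and 2.70-fold lower in water leaves. GABA-TP1 and GABA-TP3, picked after their values were seen, had time differences between -0.35 and 0.36, and passed only for GABA-TP3 in water leaves with the block (adjusted p = 0.0487, and 0.212 without). On the list of nitrogen and amino acid metabolism, with 7 probe sets, 2 passed as lower and 1 as higher in NPA leaves, and 1 as lower and none as higher in water leaves (1 as higher with the block). The list medians were -0.40 and -0.65. Its 1 member, yfe37, entered through the synonym GAD3. It had 9.82 and 10.71 in NPA leaves and 10.16 and 10.49 in water leaves at 12 h, against 12.46 and 12.49 in NPA leaves and 12.35 and 12.25 in water leaves at 6 h. The sprays overlapped at 12 h, and at 6 h both NPA arrays were higher by a small margin. Its change was 4.63-fold lower in NPA leaves and 3.93-fold lower in water leaves.

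Hormone and isoprenoid synthesis came with 3 genes. AOC, allene oxide cyclase of the jasmonate pathway, stood at 9.34 and 9.17 in NPA leaves and 8.86 and 9.31 in water leaves at 12 h. At 6 h it had 11.70 and 11.90 in NPA leaves and 10.76 and 10.90 in water leaves. The sprays overlapped at 12 h, while at 6 h both NPA arrays were higher. The change was thus larger in NPA leaves, at -2.54 or 5.84-fold lower, than in water leaves, at -1.75 or 3.35-fold lower. AOS, the enzyme before AOC in the pathway, picked after its values were seen, is no member. It passed as lower at -2.34 in NPA leaves and stood at -0.45 in water leaves without passing. Its water values, 4.11 and 4.63 at 6 h and 3.76 and 4.09 at 12 h, lie near the lowest of the table. They were not placed above background, so the smaller change in water leaves is not firm. At 6 h AOS was higher in NPA leaves than in water leaves by 2.355 (SE 0.25, limma adjusted p = 0.04). That difference rests on the same low water values, so its size is not firm either.

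20ox-2, a gibberellin 20-oxidase, had 3.46 and 3.81 in NPA leaves and 3.98 and 4.06 in water leaves at 12 h, against 5.60 and 5.61 in NPA leaves and 5.67 and 5.94 in water leaves at 6 h. NPA arrays were the lower ones at both times, and the change was 3.92-fold lower in NPA leaves and 3.45-fold lower in water leaves on the deposited scale. Its 12 h values were not placed above background either, so neither the folds nor the order of the sprays at 12 h is firm. GA20OX1, another 20-oxidase gene of this step, passed as lower, with -1.29 in NPA leaves and -1.68 in water leaves. The list of auxin and gibberellin genes, with 8 probe sets, held no member, since 20ox-2 was not matched to it and is left out of its counts. Of the 8, 2 passed as lower and none as higher in NPA leaves, and 2 as lower and 1 as higher in water leaves (2 as higher with the block). The list medians were 0.07 and -0.17. FPPS1, farnesyl diphosphate synthase, which makes a precursor of sesquiterpenes and sterols, had 9.31 and 9.18 in NPA leaves and 9.12 and 9.05 in water leaves at 12 h, against 10.82 and 10.59 in NPA leaves and 10.60 and 10.41 in water leaves at 6 h. NPA arrays were higher at 12 h without overlap and overlapped with water at 6 h. Of the members with a symbol it had the smallest change, 2.75-fold lower in NPA leaves and 2.68-fold lower in water leaves.

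Growth came with fsm1 and XTH1. fsm1 encodes a small MYB-type protein known from early tomato fruit. Its values were 4.63 and 3.23 in NPA leaves and 4.48 and 4.05 in water leaves at 12 h, against 7.94 and 7.39 in NPA leaves and 7.96 and 7.50 in water leaves at 6 h. The sprays overlapped at both times, and the change was 13.3-fold lower in NPA leaves and 11-fold lower in water leaves on the deposited scale. Its 12 h values also lie near the lowest of the table and were not placed above background, so these folds are not firm. XTH1, a xyloglucan endotransglucosylase/hydrolase of the cell wall, had 10.13 and 9.64 in NPA leaves and 10.12 and 9.77 in water leaves at 12 h, against 11.44 and 11.34 in NPA leaves and 11.69 and 11.37 in water leaves at 6 h. The change was 2.84-fold lower in NPA leaves and 3-fold lower in water leaves. XTH3, XTH5, XTH6, XTH7 and XTH16, of which XTH3 alone is on the list and the others were picked after their values were seen, did not pass in either spray without the block. With it, XTH5 passed as higher in NPA leaves, at 0.54 (adjusted p = 0.0365), and XTH7 as lower, at -1.3 (0.0414). XTH7 stood at -1.16 in water leaves. On the list of growth, cell cycle and cell wall genes, with 25 probe sets, 2 passed as lower and 4 as higher in NPA leaves (7 as higher with the block), and 3 as lower and 3 as higher in water leaves. The list medians were 0.11 and 0.13.

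Dea1, a tomato gene known to be induced by arachidonic acid and by the late blight pathogen and to follow a daily rhythm, had 10.16 and 9.44 in NPA leaves and 8.94 and 9.68 in water leaves at 12 h. At 6 h it stood at 12.32 and 12.20 in NPA leaves and 12.08 and 11.98 in water leaves. Its change was 5.5-fold lower in NPA leaves and 6.59-fold lower in water leaves, and the pairs disagreed on which spray had the larger one. LOC544001 had the widest spread within groups of the members with a symbol. It had 11.74 and 9.74 in NPA leaves and 10.79 and 8.36 in water leaves at 12 h. At 6 h it had 13.41 and 12.79 in NPA leaves and 13.20 and 11.42 in water leaves. Its repeat 2 arrays were the lower ones in all 4 groups. The time difference was -2.36 in NPA leaves and -2.74 in water leaves. In limma its adjusted p was 0.137 in NPA leaves and 0.102 in water leaves without the repeat, and 0.00831 and 0.00573 with the repeat as a block.

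Most members had no symbol, and the largest changes of all were among these. Les.4345.4.A1_x_at stood at 5.72 and 4.91 in NPA leaves and 5.76 and 5.37 in water leaves at 12 h, against 13.19 and 13.16 in NPA leaves and 13.13 and 13.19 in water leaves at 6 h. It changed by -7.86 in NPA leaves and -7.60 in water leaves, and Les.4345.4.A1_at by -7.74 and -7.70. The next were Les.3016.1.S1_at (-5.71 in NPA leaves and -5.40 in water leaves), Les.3297.1.S1_at (-5.53 and -5.28), Les.4359.1.S1_at (-5.22 and -5.07) and Les.2131.1.A1_at (-5.03 and -5.24). For Les.2131.1.A1_at the 12 h values, between 4.18 and 4.60, lie near the lowest of the table. They were not placed above background, so the sizes of its changes are not firm. The 6 h values of Les.3016.1.S1_at and Les.3297.1.S1_at, between 14.02 and 14.12, lie close to the top of the table. Whether the scale limits them was not tested.

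In the array maker's naming, probe sets with the same first number come from 1 cluster of transcript sequences, so they are not independent. The 153 members came from 119 clusters, and 58 of them shared a cluster with another member, in 24 clusters. Of 33 clusters with several probe sets on the array and a member among them, 22 had members only. The other 11 held 12 probe sets that were not members. Of these 12, 10 had time differences below 0 in all 4 pairs, or 83.3%, beside 26.9% of all probe sets, and 8 had a mean of -1 or lower. The agreement was not complete: within Les.3297, 2 probe sets were members, and the third had a mean time difference of -0.29.

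**Figure D3:**
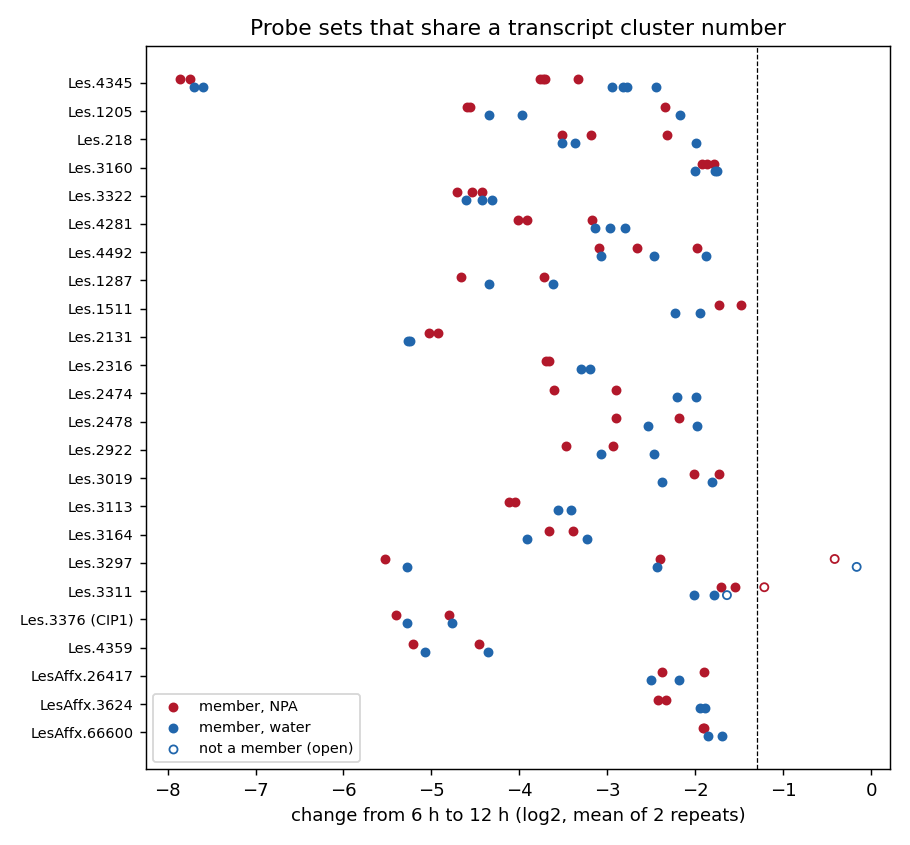
Change from 6 h to 12 h (horizontal axis, log2, mean of 2 repeats) for the 24 transcript clusters with at least 2 members, 1 row each. Red points are NPA leaves and blue points water leaves, open points are probe sets that are not members, and the dashed line is the limit of the rule; Les.4345, with 6 members, spans the widest range.

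All 6 probe sets of Les.4345 were members. The 2 named above changed by over 7 in size, and the other 4 by between -3.76 and -3.34 in NPA leaves and between -2.95 and -2.45 in water leaves. These 4 were below water in both NPA arrays at 12 h. The one with the largest difference, Les.4345.1.S1_at, had 10.11 and 10.12 in NPA leaves against 11.04 and 11.08 in water leaves at 12 h, and 13.79 and 13.91 in NPA leaves against 13.83 and 13.85 in water leaves at 6 h. Its NPA minus water difference at 12 h was -0.95 (SE 0.11, n = 2 per group, limma adjusted p = 0.248), and with an intensity trend in limma the adjusted p was 0.0359. Les.4345.4.A1_x_at and Les.4345.4.A1_at differed by -0.25 and -0.07.

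The change in NPA leaves and that in water leaves were of like size in most members. They differed by under 0.5 on the log2 scale in 119 of 153, or 77.8%, beside 78.2% of all probe sets. The median of the NPA change minus the water change was -0.12 over members and -0.04 over all probe sets. It was 0.00 in repeat 1 and -0.22 in repeat 2, and without the second water 6 h array it was 0.06. NPA leaves had the larger change in both repeats in 58 members (37.9%, beside 40.2% of all probe sets with the lower NPA change), and water leaves in 32 (20.9%, beside 31.9%). Both changes entered the rule, so these differences carry no test.

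In 4 members, or 2.61%, the NPA change was lower than the water change by 1 or more, beside 2.06% of all probe sets. In none was it higher by as much, beside 2.63% of all probe sets, and the highest member, Les.759.1.A1_at, stood at 0.995. LesAffx.53591.1.S1_at changed by -4.17 in NPA leaves and -2.15 in water leaves, with 6 h values of 9.54 and 9.08 in NPA leaves against 7.45 and 6.99 in water leaves. Les.2504.1.A1_at changed by -3.55 in NPA leaves and -1.65 in water leaves, with 6 h values of 9.67 and 9.65 in NPA leaves against 7.54 and 7.13 in water leaves. In both, the sprays did not overlap at 6 h, and at 12 h they did. Les.2474.1.S1_at changed by -3.61 in NPA leaves and -2.21 in water leaves.

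On the other side, Les.759.1.A1_at changed by -2.08 in NPA leaves and -3.08 in water leaves, and Les.3286.1.S1_at by -1.87 in NPA leaves and -2.77 in water leaves. Les.2861.1.S1_at changed by -1.76 in NPA leaves and -2.57 in water leaves. Its 12 h values, between 3.18 and 3.67, lie near the lowest of the table. They were not placed above background, so the sizes of its changes are not firm. Among members with a symbol, AOC and CAB5 had the larger change in NPA leaves in both repeats, by -0.46 and -1.14 and by -0.79 and -0.76. ZEP and PPCK1 had the larger change in water leaves in both, by 0.45 and 0.70 and by 0.72 and 0.37.

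NPA and water leaves were then compared directly, a contrast that the rule did not use. Averaged over both times, which cancels out of the time change, no member passed in limma at an adjusted p under 0.05, beside 0.0714% of all probe sets. At an unadjusted p under 0.05 there were 26 members, or 17.0%, beside 11.8% of all probe sets. The members' differences ran from -0.62 to 1.49 with a median of -0.08, against -0.03 over all probe sets. At 6 h no member passed (0.167% of all probe sets did), and 22 members, or 14.4%, had an unadjusted p under 0.05, beside 15.7% of all probe sets. At 12 h none passed either (0.0119% of all probe sets did), and 16 members, or 10.5%, had an unadjusted p under 0.05, beside 9.65% of all probe sets. The arrays at single times also entered the rule. No gene of the 8 lists was called in any of these 3 comparisons, and MTS1, the trichome marker, stood 1.51 higher in NPA leaves than in water leaves at 6 h (0.21 at 12 h). MTS1 was not called either, and its water values at 6 h, 3.92 and 3.97, were not placed above background.

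With the repeat as a block in limma, which uses the pairing of the repeats, 5 members passed in the average over both times, 3 higher and 2 lower under NPA, beside 0.952% of all probe sets. At 6 h 3 passed, all higher, beside 1.29%, and at 12 h none did, beside 0.00% of all probe sets, with 30 members at an unadjusted p under 0.05 beside 18.3% of all probe sets. Les.2504.1.A1_at passed in both, with a difference of 1.37 averaged (SE 0.28, adjusted p = 0.0463 with the block and 0.203 without) and 2.33 at 6 h (SE 0.40, 0.0278 and 0.114). LesAffx.71535.1.S1_at did as well, with 0.66 (SE 0.10, 0.0419 and 0.14) and 1.13 (SE 0.15, 0.0278 and 0.0757). Les.3070.2.A1_at passed at 6 h with the block, at 1.81 (SE 1.03, 0.0494 and 0.477). Les.2946.2.S1_at passed in the average at 0.92 (SE 0.13, 0.049 and 0.129), Les.4345.1.S1_at at -0.47 (SE 0.08, 0.049 and 0.15) and LesAffx.18686.1.S1_at at -0.58 (SE 0.27, 0.0381 and 0.48). SEs are those without the block, with 2 arrays per group.

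Among members with a symbol the smallest p was that of AOC, at 0.57 averaged over both times (SE 0.13, adjusted p = 0.226, and 0.0959 with the block) and 0.97 at 6 h (SE 0.18, 0.122 and 0.0524). PPCK1 stood at 0.50 (SE 0.18), ST3 at 0.30 (SE 0.12), 20ox-2 at -0.29 (SE 0.11) and CAB5 at -0.47 (SE 0.19), with adjusted p between 0.37 and 0.413. The other 12 member probe sets with a symbol had an unadjusted p over 0.05. Largest among the unnamed members with 1 sign in both repeats were Les.3286.1.S1_at at 1.49 (SE 0.23, adjusted p = 0.14), LesAffx.62349.1.S1_at at 1.40 (SE 0.67, 0.497) and Les.2504.1.A1_at, and lowest were LesAffx.3624.1.A1_at at -0.62 (SE 0.26, 0.43), LesAffx.18686.1.S1_at and Les.3924.1.S1_at at -0.54 (SE 0.69, 0.803). At 6 h both NPA arrays were above both water arrays in 37 members (24.2%, beside 21.9% of all probe sets) and below in 22 (14.4%, beside 25%). At 12 h they were above in 22 (14.4%, beside 17.1%) and below in 20 (13.1%, beside 21.0%).

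**Figure D4:**
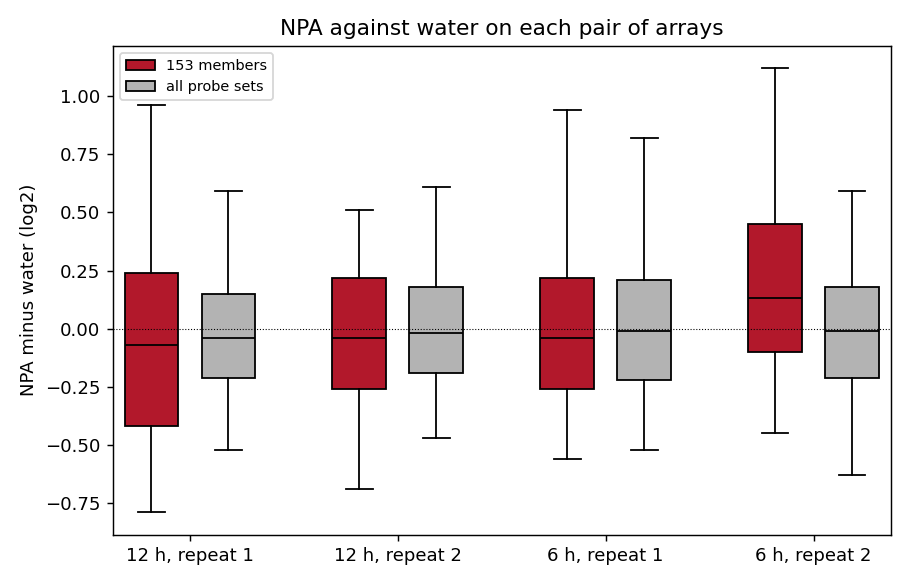
NPA minus water on the log2 scale (vertical axis) for each pair of arrays of 1 time and repeat, over the 153 members (red) and all probe sets (grey). Boxes span the quartiles with the median as a line, and whiskers the 5th to 95th percentile; the medians of the members lie between -0.07 and 0.13.

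At 6 h the members stood higher in repeat 1 than in repeat 2 more often than at 12 h. The size of the gap between repeats was not compared between the times. The members' median level at 6 h was 10.62 and 10.25 in NPA leaves for repeats 1 and 2, and 10.60 and 10.21 in water leaves. At 12 h it was 7.69 and 7.64 in NPA leaves and 7.68 and 7.50 in water leaves. Repeat 1 was above repeat 2 in both sprays at 6 h in 95 members, or 62.1%, beside 34.7% of all probe sets. At 12 h this held for 61 members, or 39.9%, beside 39.3%. In pair by pair terms the members' median change was -2.78 and -2.72 in NPA leaves and -2.76 and -2.34 in water leaves.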

How the data were processed

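The deposited table holds 1 log2 value per probe set and array, made by the authors with RMA, per the submitters' processing notes; its version and settings are not stated there. Base 2 was taken from RMA and from the range of values. Of 8488 probe sets, 84 controls were left out, leaving 8404. Platform annotation gave 1 symbol to 753 and none to 7651, and 739 of the 753 were found in RefSeq's gene table (SLM_r2.1). Coordinates and sequences are left out, since the array's sources name no genome build.

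Group means over all 8 arrays were fitted with limma 3.58.1 in R 4.3.3 (lmFit, eBayes, 4 residual and 2.55 prior degrees of freedom), with Benjamini-Hochberg adjustment over 8404 probe sets and a threshold of 0.05. SE and adjusted p come from this fit. P-values rest on the spread between pools of plants. Scripts were tested on simulated data. Figures used matplotlib 3.10.9 in Python 3.11.15.

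The design text says that the whole set of experiments was repeated, and deviations from the group means correlated between arrays of the same repeat at 0.316 to 0.596 (6 pairs of groups). Results are without the repeat in the fit, and the value with it as a block is added where a named call differs, or a count by over 1.5 times.

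Members and gene lists were chosen with earlier results of these data known. Named are all members with a symbol, list genes, and unnamed members by set counts: the largest changes, those nearest the limit, the widest NPA against water differences, and, after values were seen, those called with the block. Alternatives were other limits, renormalization, median centring, dropping dim probe sets, limma with a trend, robust or with array weights, fits on 1 time alone, the block, and leaving out arrays. The promoter motifs planned for the members were not analysed here.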

Additional observations from a re-analysis of the deposited data

Results flagged for a closer look

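Counted here are the 40 members described singly, with or without a gene symbol. In 4 of them, all without a symbol, NPA was above water in both repeats at one time and below in both at the other. Over all 153 members this held for 16, or 10.5%, beside 23.9% of all probe sets. The difference between times was not tested, since it is made of the changes that chose the members. Les.2474.1.S1_at had NPA minus water of -0.76 and -0.06 at 12 h against 0.87 and 1.12 at 6 h, a difference of -1.41. Les.759.1.A1_at had 0.16 and 0.27 at 12 h against -0.65 and -0.91 at 6 h, a difference of 0.995. For LesAffx.51354.1.S1_at the difference was -0.285, and for Les.5839.1.S1_at 0.27.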

How the results depend on the processing

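The count of 153 members was 226 at a limit of -1.0, 112 at -1.6, 208 with group means in place of pairs, 149 after another quantile normalization (all 149 shared), 158 with median centring and 111 without the dimmest 25% of probe sets. With 1 array or 1 repeat left out it ran from 158 to 239, the latter without repeat 2, since fewer pairs then have to pass. The median NPA change minus water change of -0.115 ran from -0.285 without the first water 6 h array to 0.06 without the second.

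Over members, the count of 0 in NPA against water stayed 0 in every alternative run, with these exceptions: the replicate block gave 5 averaged over both times and 3 at 6 h, and the intensity trend gave 1 at 12 h, Les.4345.1.S1_at. Over all probe sets the 6 called in the average became 80 with the block, 3 without these dim probe sets and 0 to 49 with 1 array left out. The 14 at 6 h became 108 with the block, 9 with the trend, 2 with only the 6 h arrays, 6 without these dim probe sets and 0 to 22 with 1 array left out. The 1 at 12 h became 0 with the block, with array weights, with only the 12 h arrays and without these dim probe sets, 2 with the trend and 0 to 3 with 1 array left out. For 12 h against 6 h, 2183 in NPA leaves became 3401 with the block and 925 to 1892 with 1 array left out, and 1867 in water leaves became 3144 and 356 to 1740. Les.3924.1.S1_at, at -0.54 for NPA minus water, ran from -1.12 to 0.04 with 1 array left out, the last without the first water 12 h array. The cause of these shifts was not tested. No detection calls were used, and the number of arrays limits precision.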

Other observations

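The limit of the rule was met in both NPA pairs by 240 probe sets and in both water pairs by 188. The 153 members are 63.8% of the first and 81.4% of the second. A further 87 probe sets met it in both NPA pairs without meeting it in both water pairs, and 35 the other way round; whether these differ between sprays was not tested.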
